A study of Mus musculus with 18 samples.

Results

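The genes described here are 9 genes of macrophages and neutrophils, taken by symbol from the 55450 genes of the count table: Csf1, Csf1r, Adgre1, Mrc1, Cd68, Trem2, S100a8, S100a9 and Csf3r. Each symbol matched 1 gene, all 9 are protein coding, and all 9 passed the filter on low counts. Their RNA was measured by bulk RNA sequencing in 18 samples, 1 library from each of 18 female C57Bl/6 mice, and read counts are given as CPM, the usual scale of counts relative to library size, with TMM scaling, a method that corrects for differences in library composition.

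The samples fell into 4 groups. B1/P/Rbf tumors (n = 5) carried floxed Brca1 and floxed Trp53 together with the T121 transgene (Brca1fl/fl/Trp53fl/fl/TgK18GT121Tg/+). B1/P tumors (n = 5) carried the floxed Brca1 and Trp53 alleles alone (Brca1fl/fl/Trp53fl/fl), and 5 P/Rbf tumors carried floxed Trp53 with the transgene (Trp53fl/fl/TgK18GT121Tg/+). The remaining 3 samples were normal mammary glands of wild type mice. Where 3 values for tumors follow each other without names, they belong to B1/P/Rbf, then B1/P, then P/Rbf tumors. T121 is a fragment of the SV40 large T antigen that binds and inactivates pRb and its relatives p107 and p130. It is driven by the keratin 18 promoter and is turned on by Cre, so it acts in epithelial cells. All tumors were started by adenovirus carrying Cre, injected through the nipple into the ducts of an abdominal gland, so every tumor group shares the loss of Trp53 and exposure to the virus. Whether the normal glands were injected is not given in the sources used here. The floxed alleles came from a mixed background and were crossed into C57Bl/6, and the labels give no age at collection.

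Macrophages develop and survive under signals from the receptor CSF1R, which binds the cytokines CSF1 and IL34. In the mammary gland they take part in duct growth and in clearing dying cells after weaning, and in tumors they can promote growth, vessel formation and spread. Neutrophils depend on the G-CSF receptor encoded by Csf3r and hold large stores of the calcium-binding pair S100A8 and S100A9, which together form calprotectin. These cells are not the epithelial cells targeted by Cre. Csf1 is also made by fibroblasts and tumor cells, and S100a8 and S100a9 are also expressed by some epithelial cells.

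The 3 neutrophil-associated genes moved most closely together across the tumors, so their promoters are shown first. Each runs 5′ to 3′ from 250 bases before the RefSeq start to 50 bases from it on GRCm38.p6. Capitals mark matches, on either strand, to GAGGAAG, the core bound by PU.1 in myeloid cells, or to TTNNGNAAT, a form of the C/EBP site. The S100a8 window is chr3:90668821-90669120 on the plus strand, the S100a9 window is chr3:90695672-90695971 on the minus strand and the Csf3r window is chr4:126024409-126024708 on the plus strand.
S100a8: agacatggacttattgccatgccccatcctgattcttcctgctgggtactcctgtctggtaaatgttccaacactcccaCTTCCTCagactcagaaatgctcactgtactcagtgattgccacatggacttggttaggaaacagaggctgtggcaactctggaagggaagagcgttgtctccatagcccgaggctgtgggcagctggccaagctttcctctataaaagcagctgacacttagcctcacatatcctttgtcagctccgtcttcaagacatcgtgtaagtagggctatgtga
S100a9: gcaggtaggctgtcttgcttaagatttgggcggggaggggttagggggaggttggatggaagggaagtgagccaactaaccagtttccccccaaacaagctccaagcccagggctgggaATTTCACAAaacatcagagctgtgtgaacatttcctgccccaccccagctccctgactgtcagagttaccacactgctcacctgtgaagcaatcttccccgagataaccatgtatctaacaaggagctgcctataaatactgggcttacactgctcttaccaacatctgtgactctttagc
Csf3r: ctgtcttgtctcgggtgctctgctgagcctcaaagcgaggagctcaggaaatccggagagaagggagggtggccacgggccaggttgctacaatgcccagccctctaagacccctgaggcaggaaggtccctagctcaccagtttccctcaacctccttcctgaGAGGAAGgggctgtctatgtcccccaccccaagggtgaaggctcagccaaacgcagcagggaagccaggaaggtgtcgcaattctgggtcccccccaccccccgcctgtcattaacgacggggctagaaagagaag
The PU.1 letters began at base -171 of S100a8 on the reverse strand and at base -86 of Csf3r on the gene's own strand. The C/EBP letters began at base -131 of S100a9 on the reverse strand. Of the 7 genes with a RefSeq promoter (all but Csf1r and Adgre1), 4 held GAGGAAG, the others being Mrc1 and Trem2, while 13.63% of 32851 mouse promoters of the same length held it. TTNNGNAAT was found in 1 of the 7 and in 11.46% of all promoters, and the stricter palindrome TTGCGCAA in none of the 7 and in 0.18%. These motifs do not overlap each other in the windows shown, and a match describes letters, not binding.

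Libraries held between 27661173 and 37794889 counts, with a median of 33802254. For the targeted genes, Trp53 averaged 14.7 CPM in B1/P/Rbf, 14.8 in B1/P and 10.8 in P/Rbf tumors against 61.5 in normal glands, and Brca1 averaged 29.8 CPM in B1/P/Rbf, 15.3 in B1/P and 79.0 in P/Rbf tumors but 5.45 in normal glands. B1/P/Rbf tumor 208863 had the most Brca1 of the tumors with floxed Brca1, at 45.0 CPM against 44.9 to 116 in P/Rbf tumors, and leaving it out ended 1 call of its group, that of Csf3r against normal glands (log2 fold change 2.78, edgeR adjusted p = 0.0843). B1/P tumor 225070 stood apart: it was the highest of its group and of all 15 tumors for all 9 genes, so for single genes values without it are given where it changed a call printed here. The labels number the libraries 1 to 18 and name no batch. A possible division into libraries 1 to 8 and 9 to 18 is not in the labels: it was inferred from published fold changes of this study, and what it stands for is unknown. A term for these 2 library sets was fitted as an alternative. All B1/P/Rbf tumors were in the first set, all P/Rbf tumors and normal glands in the second, and only B1/P tumors were in both (3 and 2). The size of the set term therefore rests on the B1/P tumors alone, and tumors 225070 and 246361 were both in the first set. For B1/P/Rbf against P/Rbf tumors or normal glands, library set and genotype therefore cannot be told apart except through the B1/P tumors.

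**Figure D1:**
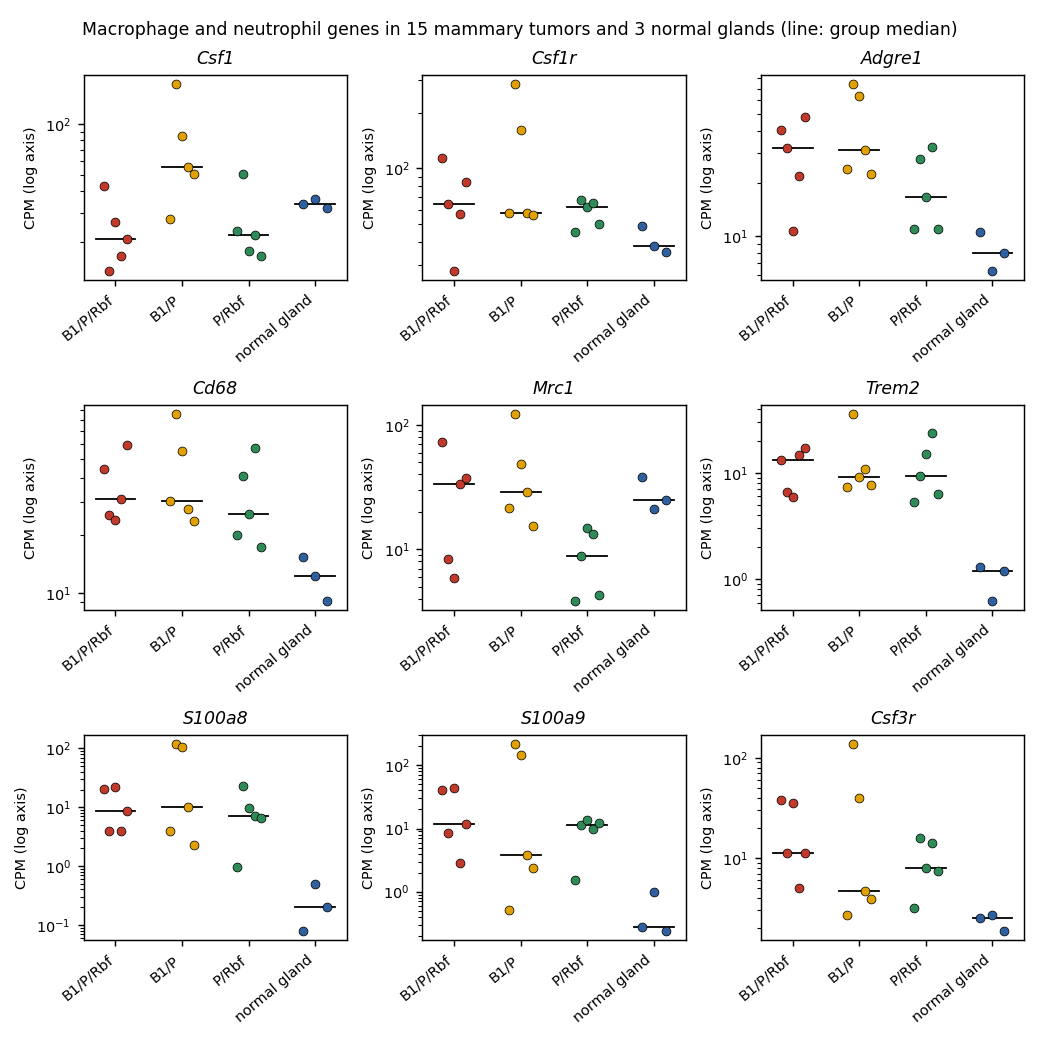
CPM of each of the 9 genes (log axis) in every sample by group, with 1 point per mouse and a line at the group median. Trem2, Cd68, Adgre1 and S100a8 are higher in all 15 tumors than in all 3 normal glands, while Csf1, Csf1r and Mrc1 overlap between some tumors and glands.

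Csf1 encodes the main growth factor of macrophages and lies on chromosome 3 from 107741048 to 107760469 of GRCm38, on the minus strand. It was highest in B1/P tumors, at 27.5, 50.8, 55.3, 84.7 and 172 CPM. B1/P/Rbf tumors had 13.6, 16.7, 20.9, 26.2 and 43.2 CPM, and P/Rbf tumors had 16.5, 17.7, 22.2, 23.4 and 50.5 CPM. The normal glands lay close together at 32.0, 33.8 and 36.1 CPM. In each T121 group 4 of 5 tumors were below every B1/P tumor, and 1 tumor lay within the B1/P range. Against B1/P tumors, Csf1 fell by 1.69 on the log2 scale in B1/P/Rbf (n = 5 and 5, log2 fold change -1.69, SE 0.445, edgeR quasi-likelihood adjusted p = 0.0160, exact two-sided permutation p = 0.0159). It was the only one of the 9 genes called in that comparison, where 9.29% of all genes tested were called lower. The difference was -1.177 without tumor 225070 (edgeR adjusted p = 0.0452) and -1.97 with a term for library set (edgeR adjusted p = 0.0154). Csf1 of P/Rbf tumors fell against B1/P tumors by 1.58 (log2 fold change -1.58, SE 0.444, edgeR adjusted p = 0.0203, exact two-sided permutation p = 0.0159, n = 5 and 5). That call was lost without tumor 225070 (log2 fold change -1.07, edgeR adjusted p = 0.0623), without P/Rbf tumor 290845 (edgeR adjusted p = 0.0516) and with the library set term (log2 fold change -1.02, edgeR adjusted p = 0.235). Within the first set B1/P tumors had 27.5, 84.7 and 172 CPM, with B1/P/Rbf tumors at 13.6 to 43.2. Within the second set the 2 B1/P tumors had 50.8 and 55.3 CPM, just above the highest P/Rbf tumor at 50.5. Markers of fibroblasts and epithelium also differed between these groups. The 6 fibroblast markers summed to 567 to 3095 CPM in B1/P/Rbf, 1617 to 7318 in B1/P, 976 to 2886 in P/Rbf and 667 to 1251 in normal glands, and of the 6 none rose and 1 and 2 fell in the T121 groups against B1/P, with Pdgfrb lower by 1.23 and 1.45 on the log2 scale. The 6 epithelium markers summed to 2454 to 4835, 1598 to 3593 and 4643 to 8969 CPM in the tumor groups and 1382 to 1771 in normal glands, and 2 and 4 of the 6 rose, among them Krt18 by 1.68 and 2.74. The part of these cells in the differences of Csf1, and of its fellow ligand Il34, was not tested. No tumor group passed the Csf1 test against the normal glands, with log2 fold changes of -0.49 in B1/P/Rbf, 1.199 in B1/P (edgeR adjusted p = 0.0867) and -0.38 in P/Rbf.

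Il34, the other ligand of CSF1R, is among 14 partners of CSF1 and G-CSF signaling that were followed as a list and, like Csf1, had its highest mean in B1/P tumors. It averaged 15.1 ± 6.27 CPM in B1/P (SD, n = 5), 2.98 ± 1.09 in B1/P/Rbf and 2.50 ± 1.49 in P/Rbf tumors, with 11.3 ± 4.21 in the normal glands (SD, n = 3). The lowest B1/P tumor, at 9.29 CPM, was above the highest B1/P/Rbf tumor at 4.54 and the highest P/Rbf tumor at 5.08. Il34 fell by 2.34 in B1/P/Rbf and by 2.60 in P/Rbf against B1/P tumors on the log2 scale (edgeR adjusted p = 0.00196 and 0.00116). Of the 13 list genes tested, none rose and 2 fell in B1/P/Rbf against B1/P tumors, the second being the transcription factor Cebpb with a log2 fold change of -1.16. In P/Rbf against B1/P tumors none rose and 3 fell, which were Il34, Cebpb and the GM-CSF receptor chain Csf2ra, with -1.69 for Csf2ra. The median log2 fold change of the 13 was -0.48 and -0.72, against -0.06 and -0.05 for all genes. Cebpa, which drives myeloid as well as fat cell development, fell, with log2 fold changes of -3.81, -3.87 and -4.59 in the 3 tumor groups against normal glands, where adipocyte markers summed to 9182 to 13250 CPM against at most 172 in any tumor. The part of adipocytes in that difference was not tested. Against normal glands 1, 0 and 0 of the 13 genes rose and 4, 3 and 4 fell. Of all 19186 genes tested, 7108, 6481 and 7230 were called there in either direction, and 17.1%, 16.8% and 17.4% were called higher. Each list count against normal glands below is to be read beside these values, and no list was tested against them. Csf3, the ligand of the G-CSF receptor, was uneven, from 0.162 to 38.8 CPM over the tumors.

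Csf1r, the receptor for both ligands, is on chromosome 18 and overlaps Hmgxb3 on the opposite strand, so reads of the pair are uncertain unless counting used strand. Its levels were 28.04, 56.6, 64.1, 84.7 and 114 CPM in B1/P/Rbf, 56.1, 57.1, 57.8, 161 and 286 in B1/P, and 45.3, 49.97, 61.6, 65.3 and 67.7 CPM in P/Rbf tumors. Normal glands had 35.6, 37.9 and 48.9 CPM. The tumor groups overlapped and the high B1/P mean of 124 ± 102 CPM (SD, n = 5) came from tumors 225070 and 246361. Csf1r was called only in B1/P tumors against normal glands (log2 fold change 1.60, SE 0.531, edgeR adjusted p = 0.0278, exact two-sided permutation p = 0.0893), where all 5 tumors were above all 3 glands. This call was lost without tumor 225070 (1.02, edgeR adjusted p = 0.0757), when any 1 of the 3 glands was left out, and with the library set term (0.48, edgeR adjusted p = 0.524). The strict filter also ended it (1.34, edgeR adjusted p = 0.0601), as did a fit of only the 2 groups (1.60, edgeR adjusted p = 0.0722). With limma-voom and quantile normalization the value was 1.33 (limma adjusted p = 0.0520). Of the 7 settings other than leaving out a sample, 3 kept the call. Between tumor groups the log2 fold changes of Csf1r were -0.83 in B1/P/Rbf and -1.09 in P/Rbf against B1/P (edgeR adjusted p = 0.201 and 0.0856). Without tumor 225070 they were -0.26 and -0.52. The ligand Csf1 thus differed between tumor groups past the test while its receptor did not, and the difference between these effects was not tested.

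Adgre1 encodes F4/80, the surface protein by which mouse macrophages are usually recognised (chromosome 17, 57358691 to 57483527, plus strand). It measured 10.7, 21.9, 31.8, 40.8 and 48.3 CPM in B1/P/Rbf, 22.5, 24.3, 31.2, 63.1 and 74.5 in B1/P, and 10.9, 11.0, 16.7, 27.6 and 32.2 in P/Rbf tumors. The normal glands had 6.32, 7.96 and 10.6 CPM, so every tumor lay above every gland, some only just. Adgre1 rose in B1/P/Rbf (log2 fold change 1.89, SE 0.546, edgeR adjusted p = 0.0121) and B1/P tumors (2.38, SE 0.560, edgeR adjusted p = 0.00365) and did not pass the test in P/Rbf (1.25, edgeR adjusted p = 0.0725). Adgre1 under the library set term was called in B1/P (1.70, edgeR adjusted p = 0.0450) but not in B1/P/Rbf tumors (0.88, edgeR adjusted p = 0.446). Bulk samples cannot tell more cells of a type from more RNA per cell, for this and all genes here.

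Cd68 encodes a lysosomal protein of macrophages (chromosome 11, 69664213 to 69666153, minus strand). Its range was 24.02 to 59.3 CPM in B1/P/Rbf, 23.7 to 86.0 in B1/P, 17.4 to 57.4 in P/Rbf and 9.11 to 15.4 in normal glands, with no overlap between tumors and glands. Each tumor group passed the test against normal glands for Cd68, rising by 1.59 on the log2 scale (SE 0.493, edgeR adjusted p = 0.0177) in B1/P/Rbf, by 1.86 (SE 0.50, edgeR adjusted p = 0.00864) in B1/P and by 1.40 (SE 0.488, edgeR adjusted p = 0.0324) in P/Rbf. All 3 calls were lost without gland 330156, and that of P/Rbf also without gland 330154 or 330155 or without P/Rbf tumor 287845 or 287822. Under the library set term only the P/Rbf call held (edgeR adjusted p = 0.0205), since P/Rbf tumors and glands share a set. Between tumor groups Cd68 differed by at most 0.47 on the log2 scale and no comparison passed the test.

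Mrc1 encodes the mannose receptor CD206, a marker of resident and alternatively activated macrophages (chromosome 2, 14229392 to 14332057, plus strand), and Mir511 lies within it. P/Rbf tumors had the lowest levels, at 3.85, 4.29, 8.86, 13.3 and 14.8 CPM. B1/P tumors had 15.4, 21.4, 28.8, 48.9 and 122 CPM, all above every P/Rbf tumor. B1/P/Rbf tumors spread from 5.87 through 8.31, 33.8 and 37.3 to 72.8 CPM, and normal glands had 20.98, 24.7 and 38.3. Mrc1 fell by 2.39 in P/Rbf against B1/P tumors (log2 fold change -2.39, SE 0.683, edgeR adjusted p = 0.0223, exact two-sided permutation p = 0.00794, the smallest that 5 against 5 can give). Of the genes in the fit, 10.8% were called lower in this comparison and 5.11% had no overlap with P/Rbf lower, and the members called were Csf1 and Mrc1. Without tumor 225070 the Mrc1 value was -1.67 (edgeR adjusted p = 0.0689), without P/Rbf tumor 287842 or 290845 the edgeR adjusted p was 0.0534 or 0.0542, and with the library set term the value was -1.29 (edgeR adjusted p = 0.310). Within the second set the 2 B1/P tumors had 15.4 and 28.8 CPM, still above all P/Rbf tumors. Against the normal glands P/Rbf tumors were all lower in Mrc1, as for 26.5% of all genes (log2 fold change -1.63, edgeR adjusted p = 0.090), whereas B1/P/Rbf and B1/P tumors overlapped with them (0.18 and 0.76). B1/P/Rbf against P/Rbf tumors gave 1.81 (SE 0.670, unadjusted p = 0.0151 in edgeR, adjusted p = 0.189).

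In all, 13 other genes of alternatively activated macrophages were read beside Mrc1. Between P/Rbf and B1/P tumors 6 were lower in P/Rbf and 1 was higher, with a list median of -2.87 on the log2 scale, and without tumor 225070 3 were lower and 1 higher. Lyve1, a hyaluronan receptor of resident macrophages and lymphatic vessels, averaged 0.324 CPM in P/Rbf and 10.1 in B1/P tumors (log2 fold change -4.95, SE 1.09, edgeR adjusted p = 0.00580). Its medians lay closer, at 0.369 CPM in P/Rbf and 2.48 in B1/P, where 1 tumor reached 42.0 CPM. Ccl24, a chemokine, also fell but had no counts in any P/Rbf tumor, so no fold is given, and its call was lost without tumor 225070 (edgeR adjusted p = 0.104). The gene that rose was Tgm2, a transglutaminase that epithelial cells also express, with 1263 ± 390 CPM in P/Rbf, 2233 ± 788 in B1/P/Rbf and 266 ± 75.3 in B1/P tumors (SD, n = 5). Tgm2 (log2 fold change 3.07) and the secreted factor Retnla (3.63) rose in B1/P/Rbf against B1/P tumors, and no gene of the list fell. Retnla also rose in B1/P/Rbf against P/Rbf tumors (7.18, edgeR adjusted p = 0.0247), the one list gene called there, with 1 B1/P/Rbf tumor at 56.2 CPM and a group median of 3.52. Against normal glands 2, 1 and 0 of the 13 rose and 1, 4 and 8 fell, and without tumor 225070 1, 0 and 1 rose and 3, 7 and 8 fell.

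Trem2 encodes a lipid-sensing receptor of macrophages and microglia (chromosome 17, 48346401 to 48354147, plus strand). Its levels were 5.90, 6.61, 13.1, 14.6 and 17.2 CPM in B1/P/Rbf, 7.38, 7.69, 9.15, 10.8 and 35.6 in B1/P, and 5.32, 6.30, 9.40, 15.0 and 23.4 in P/Rbf tumors. The normal glands had 0.622, 1.19 and 1.29 CPM, so the lowest tumor was well above the highest gland. Trem2 rose by 3.47 (SE 0.70), 3.77 (SE 0.711) and 3.52 (SE 0.702) on the log2 scale in the 3 tumor groups against normal glands, with edgeR adjusted p of 0.000978, 0.000672 and 0.000862. All 3 calls held when any 1 sample was left out, and those of B1/P and P/Rbf held with the library set term, under which B1/P/Rbf had 2.56 (edgeR adjusted p = 0.0643). Without tumor 225070 the B1/P value was 3.08, the lowest of the 3 groups rather than the highest. The 3 tumor groups lay within 0.30 of each other on the log2 scale, or within 0.44 without that tumor, and no difference between them passed the test.

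A list of 12 genes that accompany Trem2 in lipid-associated macrophages did not all move with it. Spp1, which encodes osteopontin, rose in each tumor group against normal glands, by 4.09, 6.78 and 4.53 on the log2 scale, and Gpnmb rose by 3.71 in B1/P/Rbf and 4.03 in P/Rbf. The lipoprotein lipase gene Lpl, abundant in fat cells, fell in each (-7.34, -7.32 and -8.39). Of the 12, 4, 2 and 4 rose and 4, 2 and 2 fell. Between tumor groups Spp1 was lower than in B1/P by 2.69 in B1/P/Rbf and 2.25 in P/Rbf, and Fabp5, a fatty acid binding protein also found in epithelium, was lower by 3.66 and 2.64, whereas Lgals3 (galectin 3) rose by 1.54 in P/Rbf. Both Spp1 calls between tumor groups were lost without tumor 225070 (log2 fold changes -1.26 and -0.82, edgeR adjusted p = 0.0735 and 0.228).

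S100a8 and S100a9 lie near each other on chromosome 3, S100a8 from 90668978 to 90670035 on the plus strand and S100a9 from 90692632 to 90695721 on the minus strand. S100a8 measured 3.91, 3.91, 8.76, 20.4 and 22.4 CPM in B1/P/Rbf, 2.30, 3.91, 10.2, 105 and 118 in B1/P, and 0.949, 6.54, 7.11, 9.82 and 23.0 CPM in P/Rbf tumors. Normal glands held only 2, 6 and 15 counts of it, or 0.0782, 0.203 and 0.491 CPM, less than any tumor. S100a9 measured 2.84, 8.50, 11.6, 40.6 and 44.3 CPM in B1/P/Rbf, 0.509, 2.40, 3.81, 147 and 216 in B1/P, and 1.55, 9.74, 11.48, 12.1 and 13.7 CPM in P/Rbf tumors, against 7, 7 and 30 counts or 0.237, 0.274 and 0.982 CPM in normal glands. B1/P tumor 225068 lay within the gland range for S100a9. Both genes therefore ranged most widely within B1/P, where tumors 225070 and 246361 stood far above the other 3.

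S100a8 rose by 5.49 (SE 1.51, edgeR adjusted p = 0.00893), 7.50 (SE 1.65, edgeR adjusted p = 0.00223) and 5.16 (SE 1.49, edgeR adjusted p = 0.0115) on the log2 scale in the 3 tumor groups against normal glands. S100a9 rose by 5.42 (SE 1.77, edgeR adjusted p = 0.0237) in B1/P/Rbf and 7.19 (SE 1.92, edgeR adjusted p = 0.00852) in B1/P, and its value in P/Rbf was 4.27 (edgeR adjusted p = 0.0544, or 0.0475 without tumor 225070). Without that tumor the B1/P values were 6.84 for S100a8 and 6.25 for S100a9, both still called. Leaving out gland 330154 or 330156 ended the S100a8 call in P/Rbf and the S100a9 call in B1/P/Rbf. The exact two-sided permutation p of S100a9 was 0.0179 in B1/P/Rbf but 0.107 in B1/P. For S100a8 it was 0.0179, 0.0357 and 0.0179 in the 3 tumor groups. With limma-voom and quantile normalization both S100a9 calls and the S100a8 call in P/Rbf were lost. After adding the library set term S100a8 was called in B1/P (4.56, edgeR adjusted p = 0.0207) and P/Rbf, and S100a9 in P/Rbf only (edgeR adjusted p = 0.0230). Between tumor groups neither gene passed the edgeR test: S100a8 had log2 fold changes of -2.01 and -2.33 and S100a9 of -1.78 and -2.93 in B1/P/Rbf and P/Rbf (edgeR adjusted p from 0.101 to 0.319). Without tumor 225070 these were -1.35 and -1.67 for S100a8 and -0.83 and -1.98 for S100a9. The S100a9 medians ran the other way, at 3.82 CPM in B1/P, 11.6 in B1/P/Rbf and 11.5 in P/Rbf, since the high B1/P mean came from tumors 225070 and 246361. With the library set term the P/Rbf values turned to 0.60 for S100a8 and 1.64 for S100a9, and with limma-voom and quantile normalization the B1/P/Rbf value of S100a9 was 0.33. DESeq2 called both genes lower in P/Rbf than in B1/P (-2.31 and -2.91, DESeq2 adjusted p = 0.0434 and 0.0257). The ratio of S100a9 to S100a8 counts ran, among the tumors, from 0.130 in B1/P tumor 225068 to 2.17 in B1/P/Rbf tumor 208857. Squamous epithelium markers, which include keratins and Lcn2, summed to 2355 and 2470 CPM in tumors 225070 and 246361, 603 to 2012 in the other tumors and 135 to 162 in the glands. The part of squamous cells in the S100a8 and S100a9 levels was not tested.

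Csf3r, the G-CSF receptor (chromosome 4, 126024550 to 126044440, plus strand), is more restricted to neutrophils. It measured 5.02, 11.1, 11.1, 35.2 and 37.6 CPM in B1/P/Rbf, 2.67, 3.91, 4.67, 39.7 and 137 in B1/P, and 3.19, 7.49, 7.97, 14.0 and 15.8 CPM in P/Rbf tumors, against 1.86, 2.54 and 2.68 CPM in normal glands. All tumors but B1/P tumor 225068 lay above the glands. Csf3r rose in B1/P/Rbf (log2 fold change 3.08, edgeR adjusted p = 0.0486) and B1/P tumors (3.99, SE 1.24, edgeR adjusted p = 0.0197). The exact two-sided permutation p was 0.0536 and 0.143, and both calls were lost with limma-voom and quantile normalization. The B1/P/Rbf call was near the threshold and held in only 6 of the 18 fits that left out 1 sample, and the B1/P call was lost without tumor 225070 (2.43, edgeR adjusted p = 0.0575) or any 1 gland. In P/Rbf tumors, all above the glands, the value was 2.04 (edgeR adjusted p = 0.160). With the library set term its value was -0.72 in B1/P/Rbf (edgeR adjusted p = 0.750) and 0.86 in B1/P (edgeR adjusted p = 0.571).

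**Figure D2:**
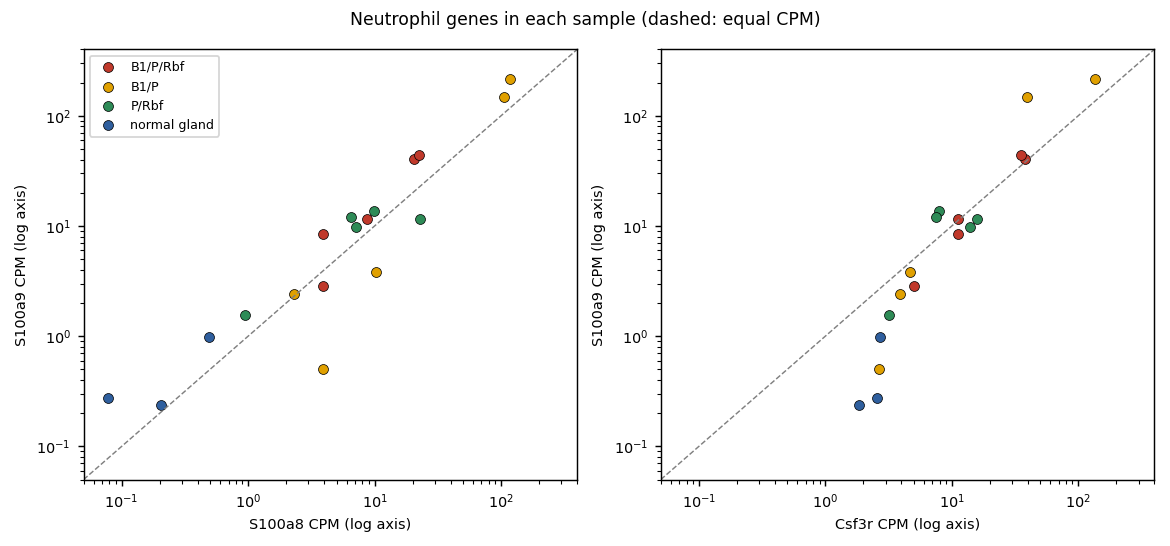
S100a9 CPM against S100a8 CPM and against Csf3r CPM in the 18 samples on log axes, with 1 point per mouse coloured by group and a dashed line where both genes are equal. Tumors 225070 and 246361 lie at the upper right, the 3 normal glands at the lower left, and B1/P tumor 225068 lies below the line with 0.509 CPM of S100a9.

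A list of 20 markers of neutrophils were read beside these 3 genes. Ly6g, the defining surface marker of mouse neutrophils, had 0 counts in the normal glands and at most 27 counts in any tumor and was not tested, and the granule enzyme genes Mpo and Elane had at most 45 counts in any sample. Of the 19 tested, 9, 10 and 7 rose and 1, 1 and 1 fell against normal glands. Trem1, a receptor of activated neutrophils and monocytes, rose in all 3 groups and averaged 3.58, 7.90 and 23.8 CPM with at most 2 counts in any gland. The whole list summed to 226 to 1215 CPM in B1/P/Rbf, 100 to 742 in B1/P, 161 to 1229 in P/Rbf and 220 to 339 in normal glands. Ltf alone held 165 to 279 CPM in the glands, most of the sum there, and up to 958 in P/Rbf tumors. The sum is therefore no measure of neutrophil content. Padi4, an enzyme of neutrophil nuclei, ranged from 6.04 to 342 CPM in B1/P/Rbf, 0.578 to 34.9 in B1/P and 59.7 to 483 in P/Rbf tumors, so B1/P had the lowest mean of the tumor groups for Padi4 and the highest for S100a8. Padi4 rose by 3.59 and 3.84 on the log2 scale against B1/P tumors (edgeR adjusted p = 0.0465 and 0.0330). In P/Rbf tumors it averaged 187 CPM, where S100a8 averaged 9.49 and Csf3r 9.70 CPM. Padi4 thus did not follow these neutrophil genes, and the part of other cells in Padi4 and Ltf was not tested. The formyl peptide receptors Fpr1 (-3.82) and Fpr2 (-3.30) fell together with Mpo in P/Rbf against B1/P tumors. Without tumor 225070 the Fpr1 and Fpr2 values were -2.08 and -1.43 and not called (edgeR adjusted p = 0.115 and 0.260). The list then had 3 genes higher and 1 lower in P/Rbf against B1/P, in place of 1 higher and 3 lower, and the 10 genes called higher in B1/P than in glands became 7. No list gene was called between B1/P/Rbf and P/Rbf.

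Of 6 neutrophil-attracting chemokines and related genes tested, none was called between tumor groups and 3, 4 and 3 rose against normal glands. Without tumor 225070 Cxcl3 was called higher in P/Rbf than in B1/P (3.92, edgeR adjusted p = 0.0409, against 0.68 with all samples) and Cxcl1 joined those that rose in P/Rbf. Cxcl5 averaged 71.5, 33.2 and 42.6 CPM in the tumor groups and 0.147 in glands, with log2 fold changes of 8.87, 7.76 and 8.12. Cxcl12, which holds neutrophils in the marrow, fell in each group (-2.30, -2.03 and -3.69). Among 14 other S100 family genes and receptors tested, 0, 1 and 3 rose and 6, 2 and 4 fell against normal glands. Of all genes, 17.1%, 16.8% and 17.4% were called higher there. S100a14 was up by 2.91 in B1/P (edgeR adjusted p = 0.0530 without tumor 225070) and 3.32 in P/Rbf tumors, and S100b was down by 3.68 in B1/P/Rbf and 5.13 in P/Rbf tumors. S100a8 was called higher in all 3 groups, and its difference from the rest of the family was not tested.

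Counted together against normal glands, 6 of the 9 genes rose in B1/P/Rbf (17.1% of all genes tested were called higher), 7 in B1/P (16.8%) and 3 in P/Rbf tumors (17.4%), and none fell. Tumors and glands did not overlap for 6, 5 and 6 genes with tumors higher, against 23.1%, 18.7% and 20.0% of all genes. The median log2 fold change of the 9 genes was 1.89, 2.38 and 1.40, beside 0.05, 0.12 and 0.06 for all genes. These 3 comparisons share the 3 gland samples. Without the TMM scaling the median of all genes moved to 0.42, 0.48 and 0.33, and to -0.13 in P/Rbf against B1/P tumors, so changes are read relative to it. With the library set term 0, 3 and 4 of the 9 were called higher, where 9.26%, 12.9% and 18.0% of all genes were. The 3 kept in B1/P were Adgre1, Trem2 and S100a8.

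Between tumor groups 1 gene of the 9 fell in B1/P/Rbf against B1/P (9.29% of all genes did), 2 fell in P/Rbf against B1/P (10.8%) and none was called in B1/P/Rbf against P/Rbf. In the last comparison 0.281% of all genes were called, edgeR gave 1 gene of the 9 with an unadjusted p under 0.05 (Mrc1), DESeq2 called none with 1 under 0.05, and limma-voom with quantile normalization called none with none under 0.05. All 9 log2 fold changes were below 0 in B1/P/Rbf against B1/P tumors, with a median of -0.83, while 46.6% of all genes were above 0. Without tumor 225070, 4 of the 9 were above 0 and the median was -0.20. For P/Rbf against B1/P tumors all 9 were below 0 (median -1.58; 47.1% of all genes were above 0), and without tumor 225070 8 were (median -0.84) and none was called. With the library set term all 9 were below 0 in B1/P/Rbf against B1/P (median -1.28), whereas in P/Rbf against B1/P 6 of the 9 were above 0 (median 0.33), so neither shared direction held in both alternatives. Csf1 of B1/P/Rbf tumors was lower with or without it.

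**Figure D3:**
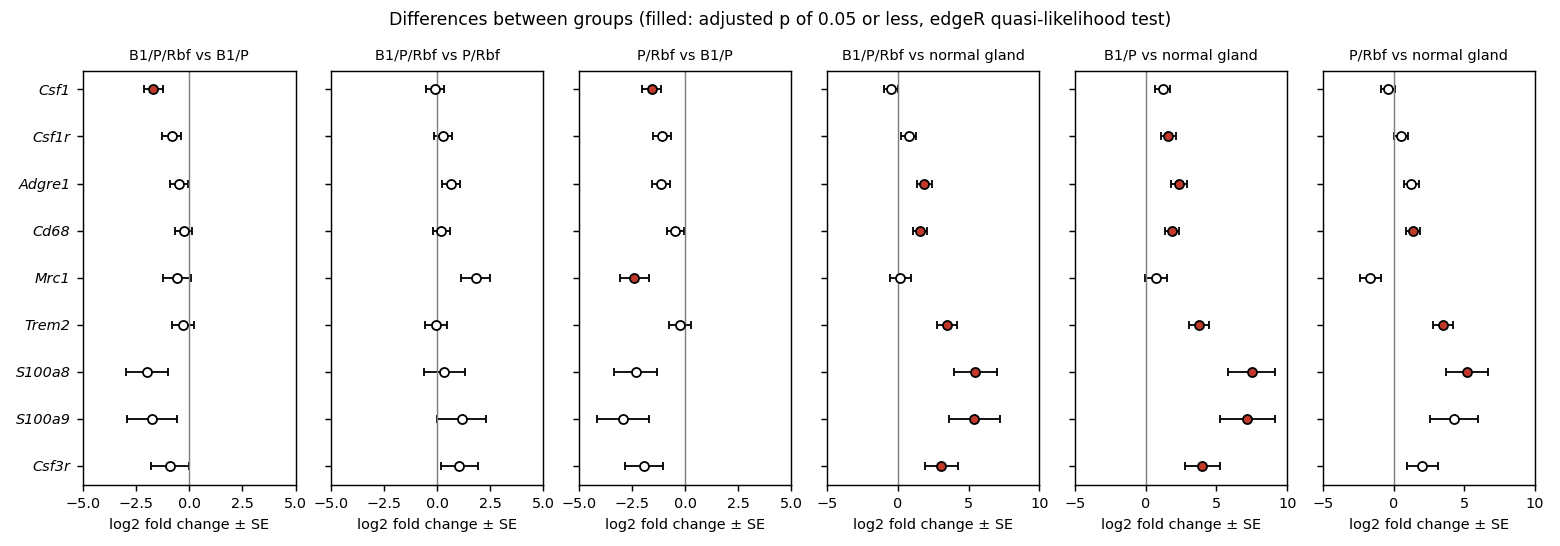
Log2 fold changes of the 9 genes (points) with 1 SE (bars) in the 6 comparisons, where filled points have an edgeR adjusted p of at most 0.05. The 6, 7 and 3 filled points against normal glands lie to the right of 0, and the filled points between tumor groups, for Csf1 and Mrc1, lie to the left.

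The levels of other cell type markers moved with these comparisons. The 19 macrophage markers other than the 9 genes summed to 958 to 1587 CPM in B1/P/Rbf, 672 to 4935 in B1/P, 681 to 1368 in P/Rbf and 755 to 907 in normal glands. Tumor 225070 had the sum of 4935 and tumor 246361 had 2118. Of the 19, 4, 11 and 3 rose and 1, 0 and 2 fell against glands, with Ms4a7, a membrane protein of macrophages, up by 2.78, 3.06 and 2.51 and the Fc receptor Fcgr1 up by 2.76, 2.80 and 1.85 on the log2 scale. The scavenger receptor Cd163 fell by 4.22 in P/Rbf against B1/P tumors, the same comparison in which Mrc1 fell, and Cx3cr1 fell by 1.32 in B1/P/Rbf against B1/P tumors (edgeR adjusted p = 0.0715 without tumor 225070). Leaving out this tumor changed the 4, 11 and 3 that rose to 7, 7 and 4.

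Lymphocyte markers differed in the opposite direction. The 5 markers of all leukocytes summed to 799 to 1125 CPM in normal glands and 75.0 to 549 in tumors, 5 B cell markers to 320 to 420 CPM in glands and at most 6.15 in tumors, and 6 T cell markers to 210 to 313 CPM in glands and at most 35.8 in tumors. Ptprc, which encodes CD45 of all leukocytes, fell in the tumor groups (log2 fold changes -2.63, -2.17 and -3.34), where Adgre1, Cd68, Trem2 and S100a8 did not fall. Gland libraries thus held more lymphocyte RNA than any tumor library, and the source of it in the glands was not tested. Fibroblast markers were highest in tumor 225070, at 7318 CPM against 567 to 3797 in the other tumors, so this tumor was high in stromal as well as myeloid genes, and the fibroblast sums of the other B1/P tumors were 1617 to 3797 CPM.

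**Figure D4:**
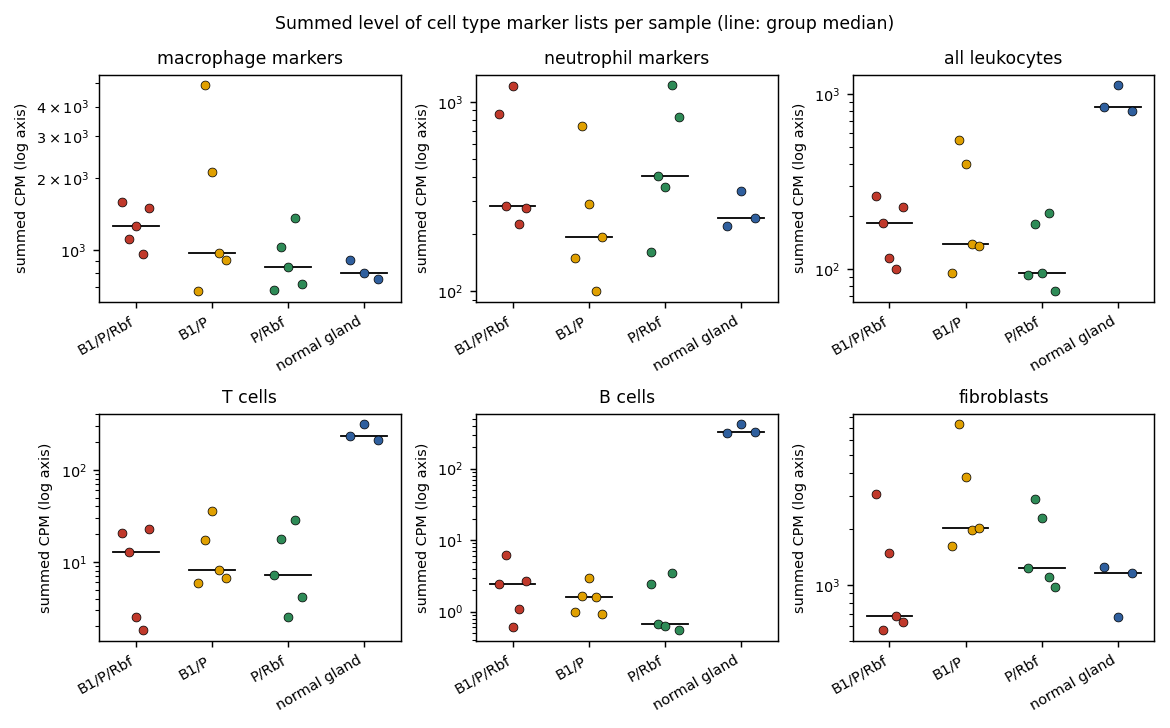
Summed CPM of markers of macrophages, neutrophils, all leukocytes, T cells, B cells and fibroblasts in every sample by group, with a line at the group median. B and T cell sums are highest in the 3 normal glands, and tumor 225070 has the highest macrophage (4935 CPM) and fibroblast (7318 CPM) sums.

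To ask whether the macrophage genes differed beyond the macrophage marker level, each was expressed as its log2 CPM minus the mean log2 CPM of the 19 markers in the same sample. Of 15 exact permutation tests between tumor groups, none had an adjusted p of at most 0.05, but a single test at the smallest p that 5 against 5 allows (exact permutation p = 0.00794) would not pass this adjustment either. The lowest was Mrc1 in P/Rbf against B1/P tumors, where the relative level was -1.31 ± 0.71 against -0.08 ± 0.39 (SD, n = 5; difference -1.23, exact two-sided permutation p = 0.0238, adjusted p = 0.298). Csf1r in B1/P/Rbf against P/Rbf tumors was 1.11 ± 0.32 against 1.56 ± 0.25 (SD, n = 5; difference -0.45, exact two-sided permutation p = 0.0397, adjusted p = 0.298). As a description against the glands, relative Trem2 ran from -2.70 to -0.20 in tumors and from -4.69 to -3.83 in glands. Relative Csf1r overlapped between them, at 0.59 to 1.84 and 1.01 to 1.11, as did relative Mrc1, at -2.05 to 0.67 and 0.26 to 0.73. The ranges of Trem2, Adgre1 and Cd68 did not overlap between tumors and glands on this relative scale, with tumors higher.

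**Figure D5:**
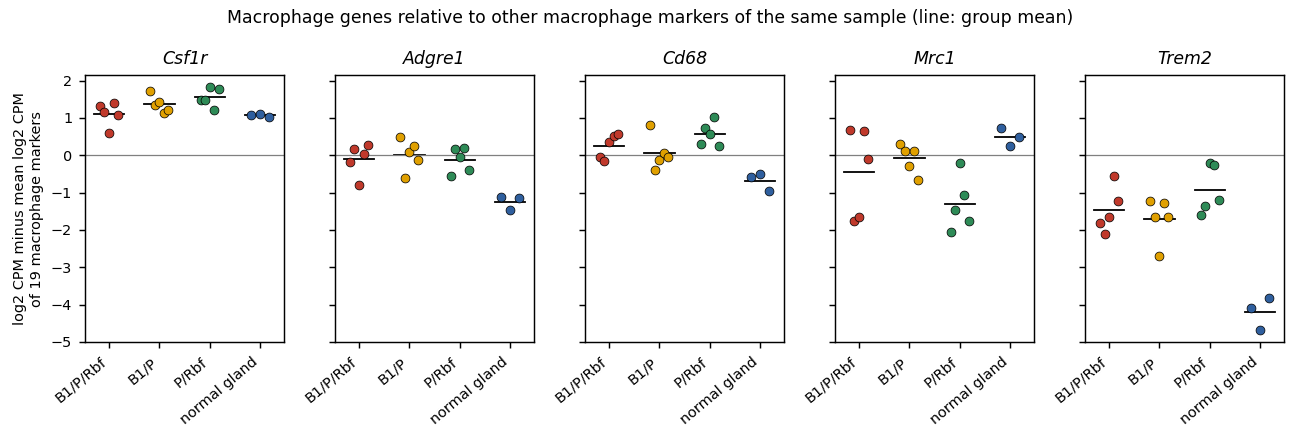
Log2 CPM of Csf1r, Adgre1, Cd68, Mrc1 and Trem2 minus the mean log2 CPM of 19 macrophage markers in every sample by group, with a line at the group mean. Relative Trem2 lies between -4.69 and -3.83 in the glands, below all tumors, while Csf1r and Mrc1 overlap.

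The genes also varied together within the tumor groups. After each group's mean was subtracted, Pearson correlations of log2 CPM over the 15 tumors were positive for all 36 pairs, with a median of 0.682. These are descriptions over tumors that share library depth, tumor 225070 and the content of stroma. The neutrophil genes formed the tightest set, with 0.954 for S100a9 and Csf3r, 0.920 for S100a8 and S100a9 and 0.913 for S100a8 and Csf3r. Among macrophage genes Adgre1 and Cd68 reached 0.899, Csf1r and Adgre1 0.872, and Mrc1 and Trem2 0.862. The lowest values were 0.42 for Trem2 and S100a9 and 0.436 for Csf1 and Trem2. B1/P/Rbf tumor 208863 was the highest of its group for S100a8 and S100a9 and the lowest for Csf1r, Adgre1, Mrc1, Cd68 and Trem2. The same tumor had the highest sum of epithelium markers in its group (4835 CPM) and, with tumor 208857, the highest of squamous epithelium markers (1154 CPM).

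Over the same 15 tumors and 12150 genes averaging 5 CPM or more, the genes whose pattern was most like Csf1r were Ms4a6d (r = 0.953), Pik3r5 (0.952) and Fcgr2b (0.938). Those most like Csf1 were Cd33 (0.919), Itga3 (0.912) and Gda (0.909). Those most like S100a8 were Acp2 (0.935), Tubgcp4 (0.913) and Spon1 (0.890). Without the 2 tumors farthest from the median of the gene followed, all 9 correlations stayed between 0.852 and 0.919. These genes were picked for their correlation over the same tumors, so these values are no independent check. Rank correlations (Spearman) over the 15 tumors ran from 0.743 for Cd33 to 0.968 for Ms4a6d and Pik3r5.

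Divided by gene length in kilobases, so that genes can be set beside each other, Cd68 had the highest median level of the 9 in B1/P/Rbf (24.5 CPM per kb), B1/P (24.2 CPM per kb) and normal glands (9.74 CPM per kb), and S100a9 in P/Rbf tumors (22.0 CPM per kb, with Cd68 at 20.5). The order in tumors depended on the summary used. By means, which tumors 225070 and 246361 raised in B1/P, S100a9 came first in B1/P/Rbf (41.3 CPM per kb against 29.3 for Cd68) and in B1/P (141 against 35.4 CPM per kb), and Cd68 in P/Rbf (25.6 against 18.6 CPM per kb). The S100a9 median in B1/P was 7.31 CPM per kb. Mrc1 was lowest in P/Rbf by either summary (median 1.39 and mean 1.42 CPM per kb), and Trem2 in B1/P/Rbf and normal glands.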

How the data were processed

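Total RNA of 18 samples was sequenced as stranded mRNA libraries. The authors trimmed reads with cutadapt 1.18, checked them with FastQC 0.11.5 and Picard 1.119 and deposited expected counts per gene from RSEM 1.3.0. Their methods name a human genome, whereas all 55450 identifiers are those of mouse GENCODE M21 (GRCm38). Whether counting used strand is not given in the sources used here. Of the values, 5.61% were not whole, and all were rounded. Libraries held 27661173 to 37794889 counts.

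Genes passing filterByExpr (minimum count 10; 19186 genes) were tested with edgeR 4.0.16 (TMM, quasi-likelihood, R 4.3.3) in one fit of all 18 samples with group as the only term, and p-values were adjusted by Benjamini-Hochberg over all genes tested. A gene was called at an adjusted p of at most 0.05. The SE is the log2 fold change over the root of F. Exact two-sided permutation tests compared mean log2 CPM (prior count 2), with a smallest p of 0.00794 for 5 against 5 and 0.0179 for 5 against 3. Alternatives were DESeq2 1.42.0, limma-voom with quantile normalization in place of TMM (limma 3.58.1), no TMM, no filter, a strict filter, only the groups compared, a term for library set (inferred from published fold changes, not given in the labels) and each sample left out. The script was tested on simulated data.

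The 9 genes, the 18 lists (169 genes) and the tests were chosen with earlier results of these data known. Named genes were the members, up to 2 called genes with the largest rise and 2 with the largest fall per list and comparison, defining cell type markers and the 3 genes most correlated with Csf1, Csf1r and S100a8. Brca1, Trp53, Csf3 and, in P/Rbf against B1/P tumors, Cebpb were named outside this rule, after their values were seen. Promoters are from RefSeq, 7 of 9 matched. A further gene of the set is not reported here.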

Additional observations from a re-analysis of the deposited data

Results flagged for a closer look

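In groups of 5 tumors, each gene's highest and lowest sample was compared with the nearest other by Dixon's gap over range. This was done for 27 groups of values, and 3 were singled out. For independent, normally distributed values chance would single out about 1 in 20 of them. CPM values are skewed here and the genes vary together, so that rate is only a rough guide. B1/P tumor 225070 was far above the other 4 for Trem2 (35.6 CPM) and Csf3r (137 CPM), and P/Rbf tumor 287845 for Csf1 (50.5 CPM).

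Effects against normal glands also differed between tumor groups. The test of that difference is the comparison of the tumor groups itself, so these values repeat results given above and are no further evidence. Csf1 relative to the glands was lower in both T121 groups when set against B1/P (log2 fold change -1.69 for B1/P/Rbf and -1.58 for P/Rbf). Mrc1 relative to the glands was lower in P/Rbf than in B1/P tumors (-2.39). Both P/Rbf results were not called without tumor 225070 (edgeR adjusted p = 0.0623 for Csf1 and 0.0689 for Mrc1) or with the library set term (edgeR adjusted p = 0.235 and 0.310).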

How the results depend on the processing

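No paired analysis was possible because the labels give the samples no shared replicate numbers. The number of the 9 genes called in the 6 comparisons (B1/P/Rbf against B1/P, B1/P/Rbf against P/Rbf, P/Rbf against B1/P, then B1/P/Rbf, then B1/P and last P/Rbf against normal gland) was 1, 0, 2, 6, 7 and 3. Leaving out each sample in turn gave 1 to 1, 0 to 0, 0 to 2, 3 to 6, 4 to 8 and 1 to 5. Leaving out gland 330156 gave 3, 4 and 1 against normal gland. Calls over all genes fell there too, to 5000, 4361 and 5155, from 7108, 6481 and 7230 in the main fit. With the strict filter Csf1r alone was tested and 0 were called in each, so its call in B1/P against normal gland was lost. In P/Rbf against B1/P, DESeq2 called 4, limma-voom with quantile normalization (test and scaling changed together) 1, a fit of only the 2 groups 1 and the library set term 0. Of all 19186 genes these called 5028, 3159, 1763 and 2008 in that comparison, against 3684 in the main fit. The set term left 0 in B1/P/Rbf and 3 in B1/P against normal gland, limma-voom with quantile normalization 4 in B1/P, and in P/Rbf against normal gland DESeq2 gave 5, library sizes without TMM 5 and the fit of only the groups compared 6. In the same order these called 3879, 5012, 7031, 8125, 7879 and 7560 of all 19186 genes, so the general number of calls moved as well.

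Some log2 fold changes reversed sign, all of them uncalled before and after except Csf3r in B1/P/Rbf against normal gland, which was called without the set term. With the library set term these were, in B1/P/Rbf against P/Rbf, Csf1r -1.30, Adgre1 -0.36, Cd68 -0.96, S100a8 -3.27, S100a9 -4.13 and Csf3r -2.75; in P/Rbf against B1/P, Csf1r 0.025, Cd68 0.33, Trem2 0.36, S100a8 0.60, S100a9 1.64 and Csf3r 1.176; in B1/P/Rbf against normal gland, Csf1r -0.79, Mrc1 -1.36 and Csf3r -0.72; and Mrc1 -0.34 in B1/P against normal gland. With limma-voom and quantile normalization they were Mrc1 -0.20 in B1/P/Rbf against normal gland, S100a9 0.33 and Csf3r 0.36 in B1/P/Rbf against B1/P, and Trem2 0.014 in P/Rbf against B1/P. Without TMM Trem2 was 0.032 in B1/P/Rbf against P/Rbf. Relative to Ptprc in place of the 19 markers, Adgre1 was -0.11 in B1/P/Rbf against P/Rbf and Cd68 -0.01 in B1/P/Rbf against B1/P. The cause was not tested.

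Leaving out single samples turned the sign of some uncalled values. In B1/P/Rbf against B1/P the ranges were -1.15 to 0.14 for Mrc1, -0.51 to 0.11 for Cd68, -0.49 to 0.39 for Trem2, -1.26 to 0.65 for Csf3r, -0.272 to 0.056 for relative Adgre1 and -0.005 to 0.402 for relative Trem2. In B1/P/Rbf against P/Rbf they were -0.43 to 0.27 for Csf1, -0.045 to 0.506 for Cd68, -0.26 to 0.35 for Trem2, -0.035 to 0.961 for S100a8 and -0.08 to 0.20 for relative Adgre1. In P/Rbf against B1/P Trem2 ran from -0.65 to 0.44, and Mrc1 in B1/P/Rbf against normal gland ran from -0.39 to 0.49. Gland counts of S100a8 and S100a9, at most 30 in a library, limit their folds.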
